A study of Citrus sinensis with 10 samples.

Results

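The 54 clones described here were at least 2-fold lower in the fruit of a red-fleshed sweet orange mutant than in its wild type. This held at 120 and at 170 days after flowering. At 150 days in between they missed that limit on at least 1 array, and most still lay lower in the mutant. They were selected from 5856 cDNA clones on a spotted array. A clone was counted as lower at a day where its log2 ratio of mutant over wild type was at most -1 (a level 2-fold lower) on both arrays of that day. The members met this at 120 and at 170 days and failed it at 150 days on at least 1 array. Their ratios at 120, 150 and 170 days chose them and are therefore given as a description, with no test. The ratios at 190 and 220 days were not used in the choice.

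The mutant was Hong Anliu, a bud mutant of the sweet orange (Citrus sinensis) Anliu, and Anliu itself was the wild type. Fruit of both was taken at 120, 150, 170, 190 and 220 days after flowering, and RNA of mutant and wild type from the same day shared each array. Each day had 2 arrays, the first with the mutant in the red dye Cy5 and the second with the mutant in the green dye Cy3. These 2 dye-swapped arrays held the same pair of extracts and count as 1 replicate, so no test is possible at a single day, and the 10 arrays give 5 collections. The sources used here do not say which part of the fruit was taken, or whether fruit of several trees was pooled. A bud mutant arises as a changed shoot and is kept by grafting, so the comparison concerns 1 such line.

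As background, the flesh of most sweet oranges is coloured by yellow and orange carotenoids, and the red flesh of Hong Anliu is known for its lycopene, a red carotenoid. While a citrus fruit ripens, chlorophyll is broken down, carotenoids build up, sugars accumulate in the juice sacs and citric acid is used up. Large sets of genes are known to change their activity during these processes. The labels name suppression subtractive hybridisation, a method that enriches cDNA present in only 1 of a pair of samples, beside the arrays. Which clones came from it is not given in the sources used here.

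A clone's name gives its plate, row and column. No file links a clone to a gene, and 0 of 5856 clone names matched the gene table at hand. No gene name, function or sequence is therefore given, lists of pathway and cell type genes could not be counted, and whether several members carry the same cDNA was not tested. For the same reason the labelled tissue could not be checked against marker genes.

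All ratios are on the log2 scale, and each array's typical clone lies near 0 by construction. The median over all clones lay between -0.06 and 0.03 at the 5 days. At 120 days 5.19% of all clones were lower on both arrays and 3.64% were 2-fold higher. At 170 days these shares were 17.0% and 7.94%, and at 150 days 5.55% and 7.17%. The rule used these days, so the members' counts are not read against them. The direction of the ratio at 170 days rests on the dyes given in the labels and file headers. Across all clones the ratios at 170 days correlated at r = -0.31 with those at 150 days, -0.27 with 190 days and -0.51 with 220 days, and at 0.20 with 120 days. The ratios at 120 days correlated at 0.37 with 150 days, 0.13 with 190 days and -0.38 with 220 days. If the genotypes were exchanged at 170 days, the 54 members would be lower at 120 days and higher at 170 days, and the rule would pick 3 other clones.

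Over the 54 members the median ratio at the successive days was -1.31, -0.69, -1.36, 0.76 and 0.89. The median of the array with the mutant in Cy5 and that of its dye swap were -1.27 and -1.32 at 120 days. They were -0.57 and -0.78 at 150 days, and -1.29 and -1.43 at 170 days. At 190 days they were 0.73 and 0.69, and at 220 days 0.83 and 0.87. The members thus lay below 0 at both days of the rule and mostly above 0 at both later days, and the dye-swapped arrays gave the same order. At 150 days 39 members lay below 0 on both arrays and 11 above, against 38.8% and 43.3% of all clones. The rule used that day, so these counts are a description. The SD between the dye-swapped arrays over the members was, in the same order, 0.13, 0.27, 0.14, 0.15 and 0.27.

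The members were close together at 120 days, from -2.15 to -1.04, with an SD over clones of 0.19. They spread more at the other days. The SD over clones was 0.55 at 150 days (from -1.31 to 1.32), 0.57 at 170 days (from -3.43 to -1.03), 0.55 at 190 days (from -0.64 to 1.91) and 0.69 at 220 days (from -1.11 to 1.85). The rule cuts the values at 120 and 170 days at -1, which limits their spread on 1 side.

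**Figure D1:**
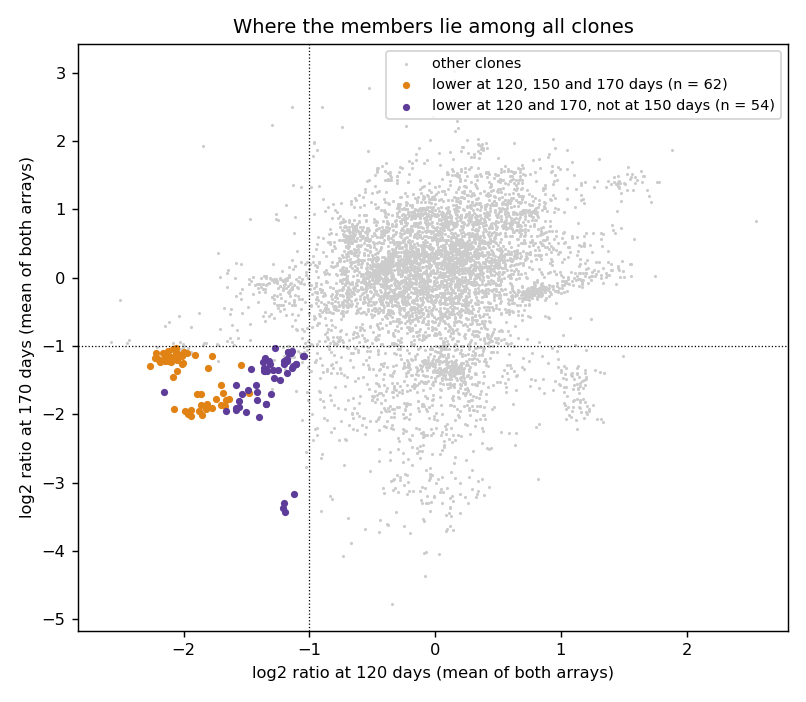
Each point is a clone, with the mean log2 ratio of both arrays at 120 days on the x axis and at 170 days on the y axis, and dotted lines mark -1. The 54 members (purple) lie near -1.31 at 120 days, the 62 clones that were also lower at 150 days (orange) lie near -2.05, and 4 members lie below -3 at 170 days.

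In all, 116 clones were lower at both 120 and 170 days. Of these, 62 were lower at 150 days as well, and the 54 members are the rest. The 62 clones had medians of -2.05 at 120 days, -1.93 at 150 days and -1.22 at 170 days. They therefore lay lower than the members at 120 days but not at 170 days. All 62 came from plates 30 to 61, whereas 44 of the 54 members (81.5%) came from plates 1 to 29, which hold 47.5% of all clones. The members' share depends on the normalization. Plates 1 to 29 held 27 of 32 clones with median centring and 39 of 58 with the authors' log ratios. With loess within printing blocks they held 25 of 43. At 190 days, a day not used in the choice, 0 of the 62 lay above 0 on both arrays and their median was -0.51. Among the members these were 44 of 54 and 0.76, and 44.3% of all clones lay above 0. All 44 came from plates 1 to 29. Of the 10 members from plates 30 to 61, the range of the 62, 0 lay above 0 and the median was -0.33. Membership and plate range thus cannot be told apart in this comparison. At 220 days the medians were 0.97 for the 62 clones and 0.89 for the members.

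The members that only just met the rule were 18.B.1, 13.E.12 and 14.A.11, whose highest values over the 4 arrays of 120 and 170 days were -1.001, -1.009 and -1.010. The nearest clones that only just missed it were 12.G.7, 22.B.9 and 10.F.11, whose highest values were -0.999, -0.997 and -0.995. Clone 10.F.11 had mean ratios of -1.21, -0.73, -1.01, 0.39 and 0.86 over the 5 days, inside the members' range at each of them apart from 170 days. Clone 12.G.7 stood at -0.44 at 190 days, within the members' range. By the limit at 150 days, 9 members had 1 of the 2 arrays at or below -1, and 42.H.3, 40.A.4 and 39.A.1 were nearest to being left out, at -0.99, -0.98 and -0.97 on the higher array. Clones 49.A.5, 41.G.3 and 35.F.8 lay just on the other side of that limit.

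The members were sorted into groups of like profile by average linkage on the distance between their 5 day means, with a limit of 0.9, a division made after the values were seen and not tested. It gave groups of 21, 10, 9, 5 and 3 clones, a pair, and 4 clones on their own. Their medians lay closest together at 120 days, from -1.53 to -1.14, and differed more at the other days.

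**Figure D2:**
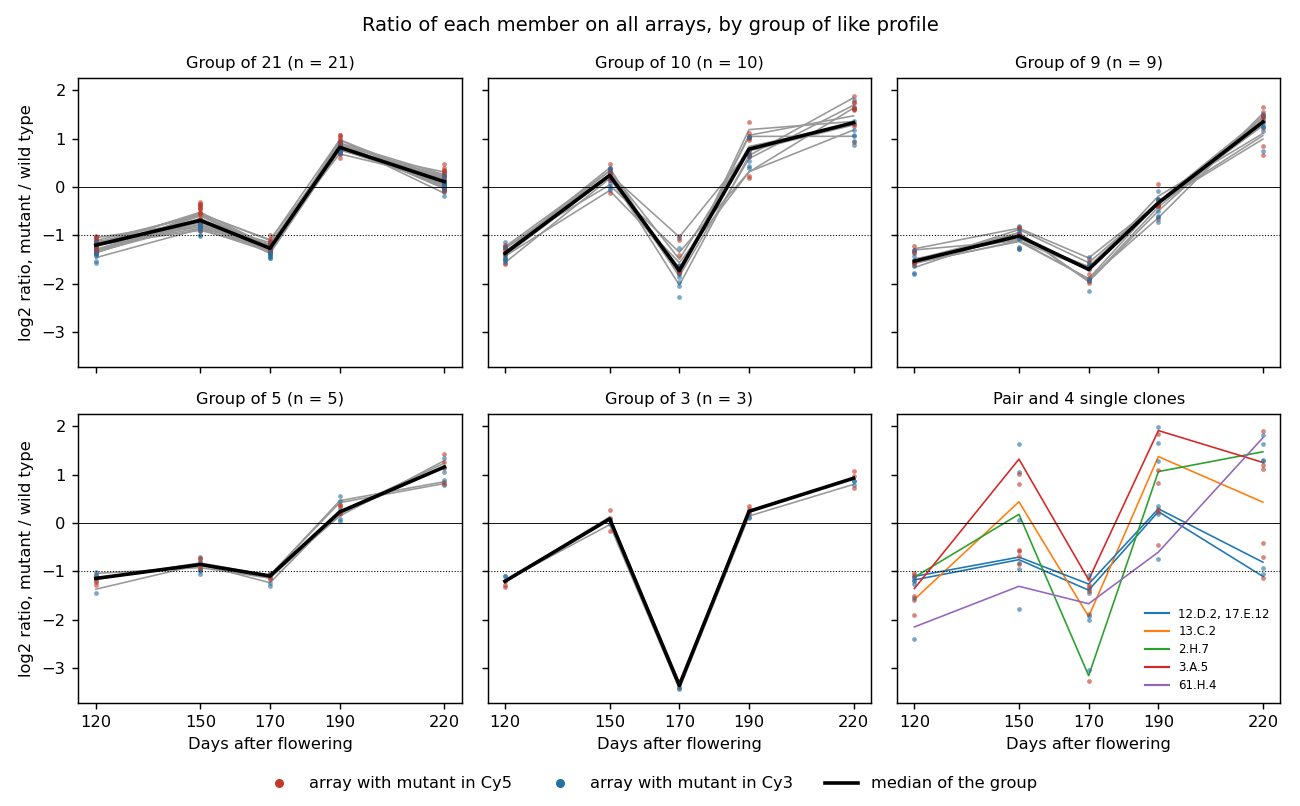
Days after flowering are on the x axis and the log2 ratio of mutant over wild type on the y axis, with a thin line through the day means of each member, a thick line for the group's median and a point for each array. All groups lie near or below -1 at 120 and 170 days, and they part at 150 days (0.24 in the group of 10 against -1.01 in the group of 9), at 170 days (-3.36 in the group of 3) and at the later days.

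The largest group held 21 clones from 18 plates between 2 and 29, in 14 of the array's 48 printing blocks. Its membership depends on the normalization: 7 of the 21 met the rule with loess within printing blocks, 9 with the authors' log ratios and 10 with median centring. Its medians over the 5 days were -1.20, -0.69, -1.27, 0.82 and 0.11. At 190 days its 21 clones ranged from 0.68 to 0.98, and at 220 days from -0.13 to 0.31. Clone 19.H.11 of this group read -1.25 and -1.43 on the 2 arrays of 120 days, -0.54 and -0.99 at 150 days, and -1.28 and -1.39 at 170 days. It then read 0.70 and 0.91 at 190 days and 0.10 and 0.30 at 220 days. The ratio of these clones was thus clearly off 0 at 190 days on both arrays and close to 0 at 220 days. Clones 18.E.8 and 29.E.11 were the lowest of the group at 220 days among those with the same sign on both arrays, at -0.13 and -0.03. They were at 0.91 and 0.90 at 190 days. Only 1 clone outside the members lay as close to the group's mean profile as its own clones did.

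The group of 10 clones, from 9 plates between 5 and 26, stood near or above 0 at 150 days, with day means from -0.07 to 0.40, between days at which it was low. Its medians were -1.37, 0.24, -1.73, 0.78 and 1.33 over the 5 days. It held 10.B.12, 11.C.7, 11.G.10, 13.F.7, 14.G.5, 16.A.1, 20.B.7, 26.D.9, 5.A.7 and 9.B.1. Clone 5.A.7 read -1.29 and -1.40 at 120 days, 0.40 and 0.39 at 150 days and -1.73 and -1.96 at 170 days, then 1.35 and 1.02 at 190 days and 1.64 and 1.07 at 220 days. Clone 16.A.1 had a like course, with day means of 1.07 at 190 days and 1.47 at 220 days. Clone 11.G.10 read 1.89 and 1.81 at 220 days, a day mean of 1.85 that was the highest of the members. With loess within printing blocks it stood at 0.72, no longer 2-fold and below 61.H.4 (1.72) and 26.D.9 (1.71). The wild type of 61.H.4 was not above the blank spots on the first array of 220 days.

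Within this group 4 clones, 11.G.10, 14.G.5, 20.B.7 and 26.D.9, had spots within 1% of the top of the intensity scale on both arrays of 170 days. The wild-type intensity there was 45397 to 45422 on the first array and 54997 to 55003 on the second for all 4, which is a ceiling. Their ratios at 170 days are therefore upper limits, and the group's median at that day includes them. For 11.G.10 these limits were -1.78 and -2.28. Spots of the same 4 clones were also near the top on the first array of 190 days, and all 3 of 26.D.9 on the second. Some of 20.B.7 and 26.D.9 were near it at 220 days. On the first array of 190 days it was the mutant intensity of 11.G.10, 20.B.7 and 26.D.9 that stood at a ceiling (41052, 41045 and 41052). The ratios of these 3 clones on that array are therefore lower limits. The intensity of 11.G.10 at 170 days was 12091 and 8551 in the mutant, and at 220 days it was 67015 and 63676 in the mutant against 10630 and 13154 in the wild type. The median clone was also dimmer in the mutant at 170 days (2647 and 2230.5 against 3982 and 4003.5) and brighter at 220 days (3730 and 3959 against 2265 and 2187.5), so intensities before normalization carry that shift as well. Clones 14.G.5 and 26.D.9 were also among the highest at 220 days, with day means of 1.69 and 1.64, and 14.G.5 stood at 1.11 with loess within printing blocks.

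The group of 9 clones came from 8 plates between 39 and 61 and was the only group from that range. Its members were 39.A.1, 40.A.4, 40.C.7, 42.H.3, 43.G.4, 52.F.9, 53.B.1, 60.A.9 and 61.E.7, and its medians were -1.53, -1.01, -1.70, -0.33 and 1.35. It was the group still below 0 at 190 days. Clone 42.H.3 read -1.61 and -1.55 at 120 days, -0.99 and -1.24 at 150 days, -1.89 and -1.91 at 170 days, -0.65 and -0.62 at 190 days and 1.546 and 1.502 at 220 days. Its arrays gave the same sign at every day, and its side of 0 differs between 190 and 220 days. Clone 60.A.9, among the 6 members with the lowest mean over 120 and 170 days, stood at -0.41 at 190 days and 1.35 at 220 days. The same days gave -0.49 and 1.46 for 61.E.7. On the first array of 220 days the wild type of 42.H.3, 60.A.9 and 61.E.7 was not above the blank spots. Clone 53.B.1 had opposite signs on the arrays of 190 days (0.07 and -0.72).

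These 9 clones were near the limit of the rule at 150 days. Of the 5 clones outside the members that lay as close to the group's mean profile as its own clones, 4 were left out because they were lower on both arrays at 150 days. Clone 35.F.8 was an example, at -1.16 and -1.10 at 150 days, with day means of -0.35 at 190 days and 1.32 at 220 days. The boundary between this group and the 62 clones lower at all 3 days is therefore set by the limit of the rule. On the first array of 220 days the wild-type signal of 5 of the 9 (40.A.4, 42.H.3, 53.B.1, 60.A.9 and 61.E.7) was not above the blank spots. Those values were kept, so the ratios of these 5 at 220 days rest partly on a signal not above the blank spots. Clone 40.A.4 was dim at 120 days as well, with a mean intensity of 67 and 157 in the mutant and 923 and 813 in the wild type. The median clone was also dimmer in the mutant than in the wild type at that day.

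The group of 5 clones (14.A.11, 14.F.9, 22.D.12, 26.E.10 and 4.H.5) had medians of -1.15, -0.86, -1.10, 0.23 and 1.16. It lay close to the limit at both days of the rule. Its membership depends on the normalization: 0 of the 5 met the rule with median centring, 1 with loess within printing blocks and 2 with the authors' log ratios. A further 5 clones outside the members were as close to its mean profile as its own clones, and all 5 missed the rule at 170 days. At 190 days its clones ranged from 0.14 to 0.46 and at 220 days from 0.82 to 1.29. Clone 22.D.12 read 0.20 and 0.08 at 190 days and 1.42 and 1.15 at 220 days.

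The group of 3 clones, 19.A.4, 23.A.3 and 9.C.12, had the lowest ratios of all members at 170 days. Clone 23.A.3 read -3.42 and -3.45 there, clone 9.C.12 read -3.33 and -3.40, and clone 19.A.4 read -3.28 and -3.32. At 150 days the same clones stood at -0.04, 0.08 and 0.12 as day means, at most 0.26 from 0 on any array. Their ratio was low at 120 days, near 0 at 150 days and lowest at 170 days, and it lay above 0 on both arrays of 190 and of 220 days. At 190 days the day means ran from 0.14 to 0.26 and at 220 days from 0.80 to 0.93. The intensities of 23.A.3 at 170 days were 3111 and 2354 in the mutant against 39353 and 38034 in the wild type. At 150 days they were 12722 and 16378 against 17583 and 15567.

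Clone 2.H.7 had a similar dip at 170 days, at -3.28 and -3.05, but its arrays differed in sign at 150 days (-0.69 and 1.04). It stood at 1.06 at 190 days and 1.47 at 220 days. No clone outside the members lay as close to the mean profile of the group of 3 as its own clones did.

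Clone 3.A.5 was the only member 2-fold higher in the mutant at 150 days, at 1.01 and 1.63. It read -1.52 and -1.19 at 120 days and -1.28 and -1.08 at 170 days, then 1.85 and 1.98 at 190 days and 1.20 and 1.31 at 220 days. The mean intensity of 3.A.5 was 323 and 664 in the mutant against 4102 and 2887 in the wild type at 120 days, and 13100 and 10836 against 4615 and 3716 at 190 days. At 120 days the median clone was also dimmer in the mutant (1036 and 1727.5 against 4555.5 and 3352), so these intensities carry that shift. Clone 3.A.5 had the highest ratio of all members at 150 and at 190 days. Clone 22.B.9, which missed the rule by 1 array of 170 days (-0.997), had a like course, with day means of 1.16 at 150 days, 1.96 at 190 days and 1.12 at 220 days.

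Clones 12.D.2 and 17.E.12 formed a pair that lay below 0 at 220 days. Clone 12.D.2 read 0.29 and 0.18 at 190 days and -1.15 and -1.07 at 220 days, and it was the only member 2-fold lower at 220 days. Clone 17.E.12 read 0.24 and 0.35 at 190 days and -0.70 and -0.93 at 220 days. With loess within printing blocks 12.D.2 and 17.E.12 stood at -0.02 and -0.005 at 190 days, and with the authors' log ratios at 0.04 and 0.07. Neither clone met the rule with these settings or with median centring. At 120, 150 and 170 days the pair stood at medians of -1.14, -0.73 and -1.33. Both thus shared the early course of the group of 21. They lay below that group's range at 190 days (0.68 to 0.98) and below all other members at the last day.

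Clone 61.H.4 had the lowest ratio of the members at 120 days (-1.91 and -2.40) and at 150 days (-0.85 and -1.77). It stood at -0.60 at 190 days and 1.76 at 220 days. On the first array of 220 days its wild-type intensity was 356, not above the blank spots (95th percentile 822). Clone 13.C.2 stood at -1.58, 0.44 and -1.94 at the first 3 days and at 1.37 at 190 days, but its arrays at 220 days differed in sign (-0.42 and 1.28).

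At 190 days 44 of the 54 members lay above 0 on both arrays, against 44.3% of all clones, and 9 lay below, against 42.8%. Of the members 5 were 2-fold higher on both arrays at 190 days, against 6.22% of all clones, and 0 were 2-fold lower, against 4.80%. At 220 days 43 members lay above 0 on both arrays and 4 below, against 38.3% and 44.0% of all clones. There 19 members were 2-fold higher, against 4.37%, and 1 was 2-fold lower, against 2.19%. Read against these shares, the members' count above 0 was high at both later days, and their 2-fold count was high at 220 days and near the background at 190 days. At 220 days other clones low at 120 or 170 days showed like shares. Of the clones compared, 90.3% of the 62 clones lower at all 3 days lay above 0, 78.2% of the 188 clones lower at 120 and not at 170 days and 83.2% of the 882 lower at 170 and not at 120 days, against 79.6% of the members. The 2-fold share at 220 days was 35.5% of the 62, 11.7% of the 188 and 17.7% of the 882, against 35.2% of the members. At 190 days 0 of the 62, 25% of the 188 and 57.9% of the 882 lay above 0, against 81.5% of the members. The members above 0 there all came from plates 1 to 29, and the 62 all from plates 30 to 61. The members of a group follow each other closely and are not independent, so these counts carry no test.

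**Figure D3:**
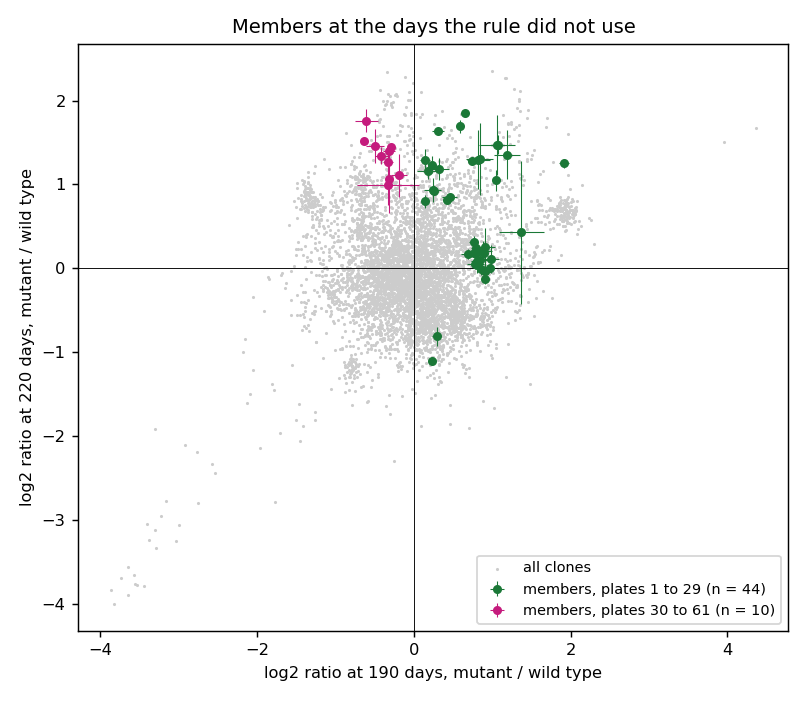
The log2 ratio at 190 days is on the x axis and at 220 days on the y axis, with members as points at the mean of both arrays, bars to the values of the 2 arrays, and all clones in grey. The 44 members from plates 1 to 29 (green) all lie above 0 at 190 days, and the 10 from plates 30 to 61 (magenta) lie below 0 at 190 days and near 1.37 at 220 days.

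Taking both later days together, 33 members lay above 0 on all 4 arrays, against 18.1% of all clones. A further 9, near the share of all clones, lay below 0 on both arrays of 190 days and above 0 on both of 220 days, against 16.5% of all clones, and all 9 came from plates 30 to 61. The reverse was seen in 4 members (12.D.2, 17.E.12, 18.E.8 and 29.E.11), against 19.4% of all clones, and 0 members lay below 0 at both days. Of the members 21 were 2-fold higher on at least 1 of the later days, against 9.83% of all clones, and 3 on both, against 0.769%. The remaining 8 members had opposite signs on the 2 arrays of a day.

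The ratio at the later days differed with the plate of a clone, a division made after the values were seen. The 44 members from plates 1 to 29 had a median of 0.80 at 190 days (from 0.14 to 1.91), and the 10 from plates 30 to 61 a median of -0.33 (from -0.64 to -0.19). The 2 sets did not overlap. At 220 days the medians were 0.28 and 1.37, in the opposite order. On the first array of 220 days the wild type was not above the blank spots for 6 of these 10 clones. On the second array, where all members were above them, the medians were 0.27 and 1.34. Over all clones the medians of plates 1 to 29 and of plates 30 to 61 at 190 days were 0.15 and -0.10, and at 220 days -0.07 and -0.05. The members came from 31 plates and 30 printing blocks, with at most 4 from a plate and 7 from a block. Whether the plates differ in what was cloned or in how they were printed was not tested.

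The limma fit of the mean ratio over 190 and 220 days called 49 of 5851 clones at an adjusted p of 0.05 (0.837%), with 16 higher and 33 lower. With median centring these were 0 and 23. None of the 54 members passed. At an unadjusted p of 0.05 the fit gave 12 members, all higher, against 5.93% of all clones higher and 2.60% lower. The lowest member was 3.A.5, with a mean of 1.58 (SE 0.43, n = 2 collections) and an adjusted p of 0.0605 in limma. The fit has 1 residual degree of freedom per clone, the difference between the 2 days. The error of each clone therefore rests mainly on the spread over all clones, which enters as 46.7 prior degrees of freedom.

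**Figure D4:**
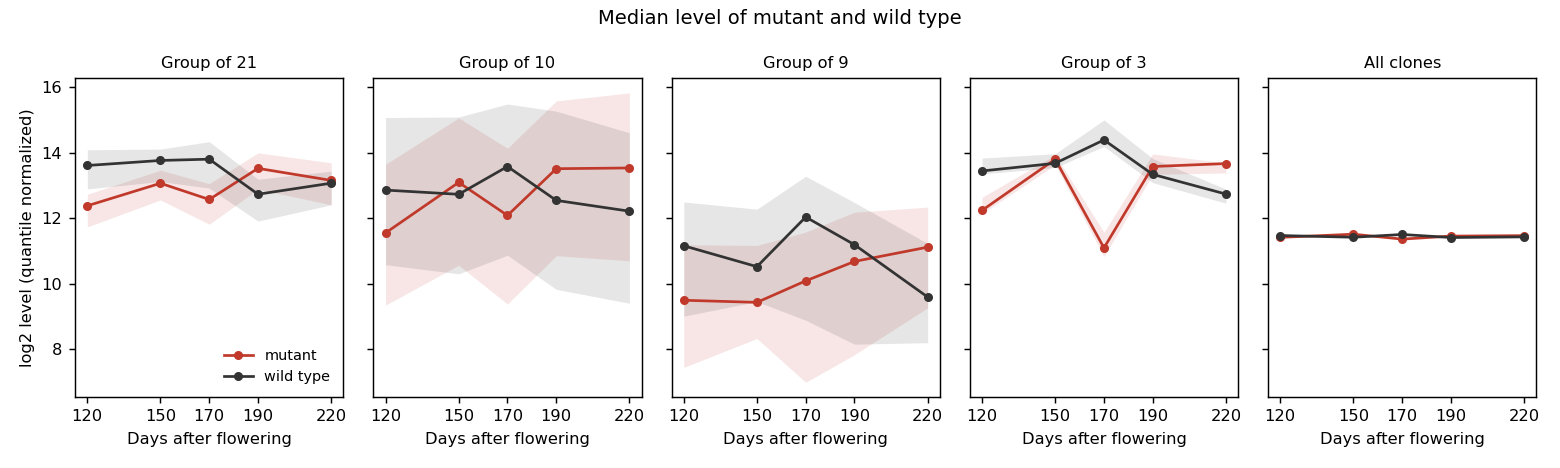
The log2 level after quantile normalization is on the y axis and days after flowering on the x axis, with lines for the median level of mutant (red) and wild type (black) and shading for the range over the clones of the group. In the group of 21 the mutant lies below the wild type up to 170 days and above it at 190 days, and in the group of 3 the mutant dips to 11.09 at 170 days while the wild type stands at 14.39.

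The level of each genotype was rebuilt from the quantile normalized mean level of both and the normalized ratio. A low ratio thus lowers the mutant level and raises the wild-type level by the same amount. Before normalization the median clone on the first arrays of 120 and 220 days was at 1036 and 3730 in the mutant. In the wild type it was at 4555.5 and 2265. The side on which the ratio moved therefore depends on the centring and is not settled by these levels. Over the members the median log2 level of the mutant was 12.21, 12.98, 12.39, 13.47 and 13.13 at the 5 days, and that of the wild type 13.44, 13.56, 13.77, 12.66 and 12.92. Over all clones both stayed between 11.36 and 11.51. Mutant levels were thus higher at 190 and 220 days than at 120 days, and wild-type levels were lower. The slope of the level on days was above 0 for the mutant in 54 of 54 members, with a median of 1.15 per 100 days. It was below 0 for the wild type in 51, with a median of -0.87. These slopes include the days of the rule, so they are a description only.

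In the group of 3 the median mutant level over the 5 days was 12.23, 13.80, 11.09, 13.57 and 13.66. That of the wild type was 13.44, 13.67, 14.39, 13.33 and 12.73. At 170 days the mutant level was thus low and the wild-type level the highest of the 5 days. With levels rebuilt from the ratio, this follows in part from the low ratio itself. In the group of 21 the mutant level was 12.37, 13.06, 12.57, 13.52 and 13.15, and the wild-type level 13.61, 13.76, 13.80, 12.73 and 13.07. In the group of 9 the mutant level was 9.49, 9.42, 10.08, 10.67 and 11.11, and the wild-type level 11.15, 10.52, 12.03, 11.19 and 9.59. This group was dimmer than the other groups at every day, and its wild-type level was lowest at 220 days. RNA of a whole sample was measured, so fewer cells of a type and less RNA per cell cannot be told apart.

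The mean level of both genotypes is a different quantity from their ratio, and its slope on days was tested over all clones. limma called 189 of 5849 clones, 159 rising (2.72%) and 30 falling (0.513%), and 0 of the 54 members. The split was 162 and 120 with arrays scaled to the same median and, when the control spots Y1 to Y4 set the level, 207 and 1. At an unadjusted p of 0.05 it gave 5 members, all with a slope above 0, against 10.3% of all clones rising and 12.3% falling. The steepest positive slopes were those of 3.A.5 at 1.66 per 100 days (SE 0.53, adjusted p = 0.138 in limma), 2.H.7 at 1.55 (SE 0.53, adjusted p = 0.148) and 11.C.7 at 1.32 (SE 0.40, adjusted p = 0.124). The lowest slopes were those of 53.B.1 at -0.62, 10.B.12 at -0.45 and 29.E.11 at -0.28, with adjusted p from 0.28 to 0.655 in limma. With the arrays kept apart and the day as a random block, 11.C.7 and 3.A.5 passed in limma (adjusted p = 0.0266 and 0.0307), an alternative added after seeing the data. Without 120 days, a day of the rule, the slope of 3.A.5 was 0.40 (adjusted p = 0.795 in limma), so its size rests largely on that collection. Arrays differ between days as well, so array differences and development cannot be told apart in this fit.

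The members were bright. Their median level over all arrays was 13.07, against 11.46 for all clones, and 42 of 54 lay above the median of all clones. Of the members 13 (24.1%) were among the brightest 10% of clones, and 0 of the 62 clones lower at all 3 days were, whose median was 11.24. By group the median level ran from 10.44 in the group of 9 to 13.87 in the group of 5. Of the 54 members 47 were above the 95th percentile of the blank spots in both genotypes on all 10 arrays. The other 7 missed it only for the wild type on the 220-day array with the mutant in Cy5. Over the 47 members the median at 220 days was 0.43, against 0.89 over all 54, and 15 of the 47 were 2-fold higher.

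The authors' deposited table of lowess ratios, on the linear scale, gave the members median ratios of 0.397, 0.606, 0.377, 1.40 and 1.98 over the 5 days. At or below 0.5 were, in the authors' deposited table, 51 of 54 listed members at 120 days, 4 of 54 at 150 days and 38 of 53 at 170 days. At 220 days 25 of 53 were at or above 2 in the authors' deposited table, and at 190 days 5 of 53. The median ratio of all clones there was 1.01 at 190 days and 0.995 at 220 days. The share of all clones at these limits was not counted in that table, so the members' counts are a description only. These values come from the same arrays under another normalization and are not independent of the choice.

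The centre of the ratios differs between normalizations, and this touches every direction given here. The control spots named Y1 to Y4 had mean ratios of 2.03, 0.24, 0.61, 0.21 and -1.14 at the 5 days. Centred on them, the median over all clones was -2.02, -0.21, -0.59, -0.20 and 1.09. This shifts every clone of a day by the same amount, so the members' distance from the median of all clones is the same by construction. Their own median was then 0.55 at 190 days and 2.03 at 220 days, and the shift puts 12.D.2 at 0.04 at 220 days.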

How the data were processed

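Two-colour cDNA arrays compared fruit RNA of mutant and wild type at 5 days, with 2 dye-swapped arrays a day. Amplified cDNA from 5 µg of total RNA was labelled with Klenow enzyme, per the labels' protocols. The authors deposited, per the file headers, an intensity of each spot in both dyes, and a linear ratio per spot. From the values, background had been subtracted from the intensities. The authors' deposited series table holds log2 values, equal to the log2 of the ratios within 5e-05. The authors' deposited lowess ratio gives 1 value per clone and day. The sources used here give neither the scanner nor the background method.

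Intensities at or below 0 were left out. The log2 ratio was normalized by global loess within each array (span 0.3, 4 iterations, control spots weighted 0), with the sign set so that a positive value is higher in the mutant. A clone's value is the mean of its 3 spots, and 7 clones lacked a value on an array. The arrays carried 19152 spots, 17568 of them from clones in 61 plates. Median clone intensity was 1036 to 3959 in the mutant and 2188 to 4556 in the wild type, and the number of arrays limits the precision. Levels were quantile normalized between arrays. The dye-swapped arrays of a day were averaged before limma (3.58.1, R 4.3.3) with eBayes, two-sided, Benjamini-Hochberg over all clones, threshold 0.05. No label says that the collections are replicates of a group, so p-values measure the spread between days. The scripts were tested on simulated data.

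The members and the lists were chosen with earlier results of these data known. The clones named were the lowest over 120 and 170 days (6), the 4 highest and 4 lowest at 150, 190 and 220 days (with the same sign on both arrays at the later days), the 3 on either side of the threshold, and the 3 steepest level slopes in each direction. Other clones named were chosen after their values were seen. Alternatives changed the normalization, the spot summary, the filters, the sign at 120 or 170 days, the days and the replicates. The replicate number gives the dye orientation. Deviations of the first orientation from the day means correlated between days at 0.07 to 0.42, above 0 in all 10 pairs of days. The main fits averaged both orientations of a day, and a block for the replicate number was fitted only among the alternatives.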

Additional observations from a re-analysis of the deposited data

Results flagged for a closer look

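Members changed side of 0 between the 2 later days in both directions. In 9 of 54 members both arrays of 190 days lay below 0 and both of 220 days above 0, which is near the 16.5% of all clones with that pattern. In 4 members both arrays of 190 days lay above 0 and both of 220 days below 0, against 19.4% of all clones. The difference between the days was not tested, since each day is 1 collection. The 9 all came from plates 30 to 61 and 0 of the 4 did. Of the 4, clone 18.E.8 read -0.07 and -0.18 on the arrays of 220 days, and clone 29.E.11 read -0.02 and -0.04. With median centring both lay above 0 at 220 days, at 0.02 and 0.14. With loess within printing blocks 12.D.2 and 17.E.12 lay just below 0 at 190 days, at -0.02 and -0.005.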

How the results depend on the processing

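The count of members, 54, was 32 with median centring, 1370 with the ratios centred on Y1 to Y4, 3 with the sign at 170 days turned and 182 with 170 days left out of the rule, an alternative added after seeing the data. Turning the sign at 120 days instead gave 61, with 0 of the 54 among them. Loess within printing blocks gave 43 with 25 shared, and the authors' log ratios 58 with 32 shared. Leaving out either replicate gave 77 and 79. The median at 190 days, 0.76, was 0.47 with loess within printing blocks, 0.55 with Y1 to Y4 and 0.47 with the authors' log ratios. The 5 members 2-fold higher at 190 days were 1, 1 and 2 under the same settings, and 6 to 10 without a replicate. At 220 days the median, 0.89, was 2.03 with Y1 to Y4 and 0.43 over the 47 members above the blank spots. The 19 members 2-fold higher were 51 with Y1 to Y4 and 15 of those 47. Clone 12.D.2 at 220 days was reversed to 0.0382 with Y1 to Y4. The cause of these differences was not tested, except that fewer members entered the blank-spot filter.

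The limma count of 49 clones for the mean over 190 and 220 days was 23 with median centring, 0 with loess within printing blocks, 11 with Y1 to Y4, 0 with the authors' log ratios, 28 with the median of the spots and 27 without spots lacking the authors' class. With each array kept and the day as a random block it was 19 with no replicate block and 22 with the replicate block (correlation 0.849, taken from the fit without that block). It was 56 to 126 without a replicate, with 86 higher and 40 lower at 126. With trended and robust eBayes it was 40, all lower. Members called, 0, were 1 with the blank-spot filter (3.A.5, adjusted p = 0.0372 in limma) and 0 to 3 without a replicate (without replicate 1, 13.C.2, 2.H.7 and 3.A.5). The adjusted p of 3.A.5 ran from 0.0227 to 0.953 over the alternatives. The limma count of 189 clones for the level slope was 0 without 120 days, 673 without 150 days, 104 without 170 days, 97 without 190 days, 0 without 220 days and 114 to 134 without a replicate. With the arrays kept apart and the day as a random block it was 653 with no replicate block, an alternative added after seeing the data, and 559 with the replicate block. Members called, 0, were 1 without 150 days (3.A.5, adjusted p = 0.0451) and 2 with the day as a random block, 11.C.7 and 3.A.5, both with no replicate block and with it (adjusted p = 0.0379 and 0.0383 with it). Over all alternatives 83 values that answer a comparison stayed close to their value and 36 moved. The close ones include the count of 61 with the sign at 120 days turned, which shared no member. Of the single-clone values 515 stayed close, 103 moved by more than the spread between the dye-swapped arrays and 1 was reversed. With the blank-spot filter and with the mean of both arrays at the limit, single-clone values equal the main ones by construction. Centring on Y1 to Y4 shifts every clone of a day alike. These counts therefore do not measure how stable a single clone is. Signal over background limits the wild type at 220 days, where 7 members were not above the blank spots on 1 array.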
